A study of Rattus norvegicus with 6 samples.

Results

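The microRNA miR-126a was followed in liver small RNA through both arms of its hairpin, miR-126a-5p and miR-126a-3p. Its reads were taken as the tags, that is, the distinct read sequences, whose first 18 bases equal those of either mature sequence. The 2 arms are 2 of 675 mature rat miRNAs that can be told apart by their first 18 bases. Over all libraries miR-126a-5p was read as 23 tags with 2101 reads, and miR-126a-3p as 18 tags with 222 reads.

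The libraries came from whole liver of Wistar rats, labelled as 4 months old, an age that differs from that in the study's methods, with 1 library per rat. The 3 NAFLD rats (nonalcoholic fatty liver disease) had been fasted and then fed a high-starch diet, and were picked for high hepatic triglycerides. The 3 normal rats received the standard diet and were picked at random. Each library held 11601058 to 11880695 clean reads, and levels are given as TPM, the reads of a miRNA per 1000000 clean reads of its library, not scaled by length. In 3 libraries, NAFLD 2, NAFLD 3 and normal 2, abundant tags carried a changed base at read position 4 in a median of 0.808% to 0.892% of their reads, against 0.0431% to 0.0460% in NAFLD 1, normal 1 and normal 3. This division cuts across the groups, was drawn from the data and touches every level below, so the former are called the libraries of high substitution rate.

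miR-126 is made from an intron of Egfl7, a gene of the vascular endothelium, and is used as a marker of endothelial cells, which in liver line the sinusoids and the larger vessels. Dicer cuts the hairpin into a duplex of both arms, and the arm loaded into an Argonaute protein silences mRNAs that pair with its seed, bases 2 to 8. The 3p arm is known for restraining Spred1 and Pik3r2, inhibitors of the signal of the vascular growth factor VEGF, and for lowering the adhesion molecule Vcam1. The 5p arm is known for restraining Dlk1, a Notch ligand that holds back endothelial proliferation. In bulk liver, fewer endothelial cells and less miR-126 per cell cannot be told apart.

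The mature sequences are shown because every value below rests on their first bases, with the seed in capitals, as given by RefSeq for the rat assembly GRCr8:
rno-miR-126a-5p: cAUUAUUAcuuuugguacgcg
rno-miR-126a-3p: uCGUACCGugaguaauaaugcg
The 5p arm lies at chr3:29813182-29813202 and the 3p arm at chr3:29813219-29813240, both on the plus strand. In the gene table of that assembly the locus overlaps Egfl7. The table gives these arms to the symbol Mir126b and gives the mature miR-126b to Mir126a on the opposite strand, so the arms were matched by mature name and not by gene symbol. No other mature sequence in the table shared either seed, and miR-126b had 0 reads in all libraries, which allows a level of up to 0.259 TPM. The stretch from the first base of 5p to the last of 3p shows both arms, in capitals, on either side of the loop:
5p to 3p of the miR-126a hairpin, DNA letters: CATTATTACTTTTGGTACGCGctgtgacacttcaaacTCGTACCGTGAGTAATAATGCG

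miR-126a-5p was the more abundant arm in every library. Its level was 44.6, 21.0 and 25.9 TPM in NAFLD 1, 2 and 3, from 517, 247 and 306 reads, and 36.4, 12.2 and 38.3 TPM in normal 1, 2 and 3, from 431, 145 and 455 reads. The lowest value was that of normal 2 and the highest that of NAFLD 1, and the groups overlapped. Mean levels were 30.5 ± 12.4 TPM for NAFLD and 29.0 ± 14.5 TPM for normal (SD, n = 3 each). The log2 fold change of NAFLD over normal was 0.07 (standard error 0.50), and the edgeR quasi-likelihood test across 167 miRNAs gave an adjusted p of 0.986. A two-sided exact permutation test on log2 TPM gave p = 0.8, where 3 libraries against 3 cannot give less than 0.1. A difference between the groups was thus not detectable within this spread.

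miR-126a-3p was read at 3.88, 2.47 and 2.79 TPM in NAFLD 1, 2 and 3, from 45, 29 and 33 reads. In normal 1, 2 and 3 it was read at 4.39, 2.53 and 2.78 TPM, from 52, 30 and 33 reads. With so few reads the counting error alone is wide: the 95% Wilson interval of the lowest value, in NAFLD 2, ran from 1.72 to 3.54 TPM, and that of the highest, in normal 1, from 3.35 to 5.75 TPM. The groups overlapped, with means of 3.05 ± 0.74 TPM and 3.23 ± 1.01 TPM (SD, n = 3 each). The log2 fold change was -0.08 (standard error 0.40, adjusted p = 0.986, edgeR) and the exact permutation p was 0.7. Across the same fit 1 of 167 miRNAs passed the adjusted p threshold of 0.05, or 0.599%, and neither arm was that miRNA. The TPM of the groups did not overlap for 7 of the 167, or 4.19%, of which 5 were higher (2.99%) and 2 lower (1.2%) in NAFLD, and again neither arm was among them. By mean TPM, miR-126a-5p ranked 64 and miR-126a-3p ranked 119 among the 365 miRNAs with reads.

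**Figure D1:**
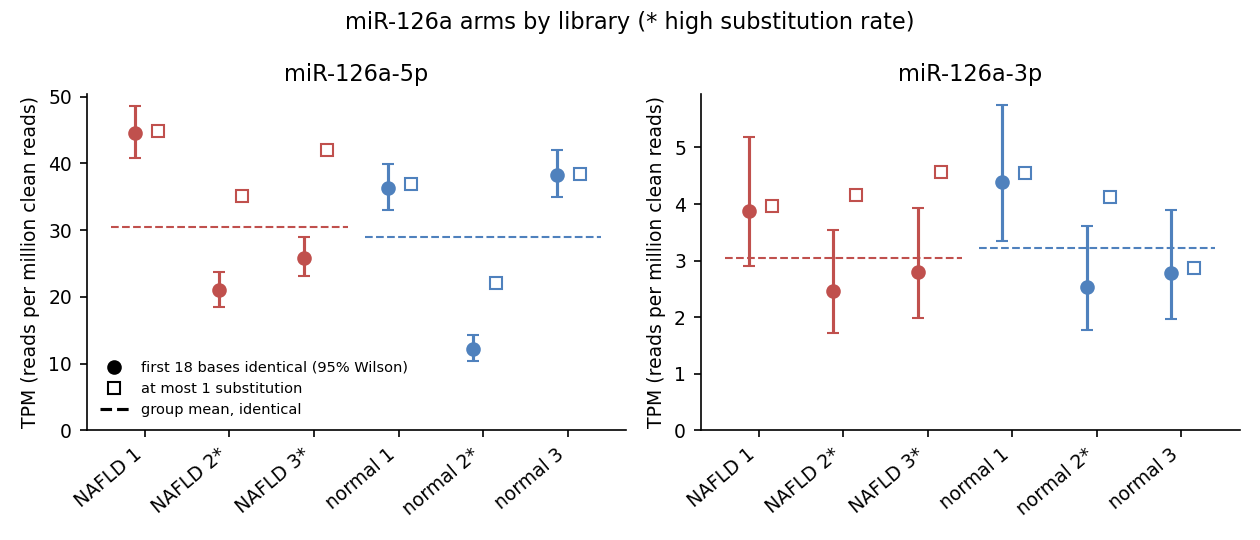
Level of each miR-126a arm in TPM (reads per 1000000 clean reads) in the 6 libraries, NAFLD in red and normal in blue. Filled points are reads with the first 18 bases identical to the mature sequence, with 95% Wilson intervals, dashed lines are their group means, and open squares also count reads with 1 substitution. In the starred libraries of high substitution rate, the open squares lie well above the filled points, whereas in the others both nearly coincide.

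The level of miR-126a-5p followed the substitution rate of the libraries. The libraries of high rate had 12.2 to 25.9 TPM and the others 36.4 to 44.6 TPM, without overlap, and the mean log2 TPM differed by -1.07. Such a fall was common, since 71 of the 167 tested miRNAs, or 42.5%, were lower in all libraries of high rate than in all others. With 1 substitution allowed in the first 18 bases this held for 24 of 173, or 13.9%, and for miR-126a-5p the difference was -0.32, with overlap. The allowance changed the count of NAFLD 2 from 247 to 413 reads, that of NAFLD 3 from 306 to 496 and that of normal 2 from 145 to 262. In these libraries 38.3% to 44.7% of the reads of miR-126a-5p thus carried a substitution, against a median of 28.2% to 28.6% over the tested miRNAs. In NAFLD 1, normal 1 and normal 3 the share was 0.438% to 1.37%. The reads of miR-126a-3p carried 1 substitution in 38.8% to 40.8% in the libraries of high rate and in 2.17% to 3.70% in the others.

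The substitutions sat at few positions, named here by the base of the mature sequence in DNA letters, the position counted from 1 at the 5′ end, and the base read. In miR-126a-5p the most frequent was A8C, with 63, 87 and 48 reads in NAFLD 2, NAFLD 3 and normal 2 and 0 reads in every other library. It was followed by A5C with 31, 37 and 27 reads, T3G with 41, 35 and 16 reads and T3A with 22, 25 and 20 reads in the same libraries, again with 0 reads in the others. In miR-126a-3p, A5C was carried by 6, 3 and 10 reads and A14C by 7, 5 and 3 reads, and both were at 0 elsewhere. All of these but A14C lie within the seed. The part of sequencing error, RNA editing or other sources in them was not tested.

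With 1 substitution allowed, miR-126a-5p was at 44.9, 35.1 and 42.0 TPM in NAFLD 1, 2 and 3 and at 36.9, 22.1 and 38.5 TPM in normal 1, 2 and 3. Normal 2 remained the lowest, and the other libraries moved closer together. The means were 40.7 ± 5.02 TPM and 32.5 ± 9.04 TPM (SD, n = 3 each), with a log2 fold change of 0.32 (standard error 0.29, adjusted p = 0.774, edgeR) and an exact permutation p of 0.3. In that fit 1 of 173 miRNAs, or 0.578%, passed the threshold. The median log2 fold change over all miRNAs tested was 0.15 there, against 0.02 with identical bases. In log2 TPM the difference between the groups was 0.25 within the libraries of low rate, which are 1 NAFLD and 2 normal libraries, and 0.80 within those of high rate, which are 2 NAFLD libraries and normal 2. With identical bases these differences were 0.26 and 0.93. With the division as a covariate, the log2 fold change of miR-126a-5p by identical bases was 0.59 (standard error 0.27, adjusted p = 0.331, edgeR), where the median over all miRNAs was 0.24 and 1 of 167, or 0.599%, passed. Normal 2 is the only normal library of high rate, so its own level cannot be told apart from a difference between the groups within that set.

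For miR-126a-3p, allowing 1 substitution gave 3.97, 4.17 and 4.57 TPM in NAFLD 1, 2 and 3 and 4.56, 4.13 and 2.86 TPM in normal 1, 2 and 3. The mean log2 TPM of the libraries of high rate minus the others went from -0.48 to 0.20, and the lowest value was then that of normal 3. The log2 fold change was 0.14 (standard error 0.30, adjusted p = 0.971, edgeR), of opposite sign to that with identical bases and, like it, smaller than its standard error. Reads identical to the whole mature 3p sequence were 16, 13 and 15 in NAFLD 1, 2 and 3 and 21, 19 and 18 in normal 1, 2 and 3, so that the groups did not overlap (exact permutation p = 0.1). With at least 50 such reads in all, the same held for 5 of 124 miRNAs, or 4.03%. The difference rests on few reads and did not pass in edgeR, with a log2 fold change of -0.38 (standard error 0.32, adjusted p = 0.936).

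The ratio of the arms was taken within each library, where depth cancels. miR-126a-5p was 11.5, 8.52 and 9.27 times as abundant as miR-126a-3p in NAFLD 1, 2 and 3, and 8.29, 4.83 and 13.8 times in normal 1, 2 and 3. The lowest and the highest ratio were both in normal libraries, and the NAFLD libraries lay between them. On the log2 scale, 3p over 5p averaged -3.28 ± 0.22 for NAFLD and -3.04 ± 0.76 for normal (SD, n = 3 each). The difference of -0.24 was smaller than the SD of the normal libraries (exact permutation p = 0.7). It was -0.10 within the libraries of low substitution rate and -0.88 within those of high rate, where normal 2 is the only normal library. With 1 substitution allowed it was -0.20 (exact permutation p = 0.7). Of 36 hairpins with both arms read in every library and at least 30 reads per arm in all, 20 had more 5p reads, and 15 had a lower ratio of 3p to 5p than miR-126a. The median size of the difference between the groups over these hairpins was 0.20, and the ratios of 2 hairpins, or 5.56%, did not overlap between the groups. miR-126a was not one of these.

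**Figure D2:**
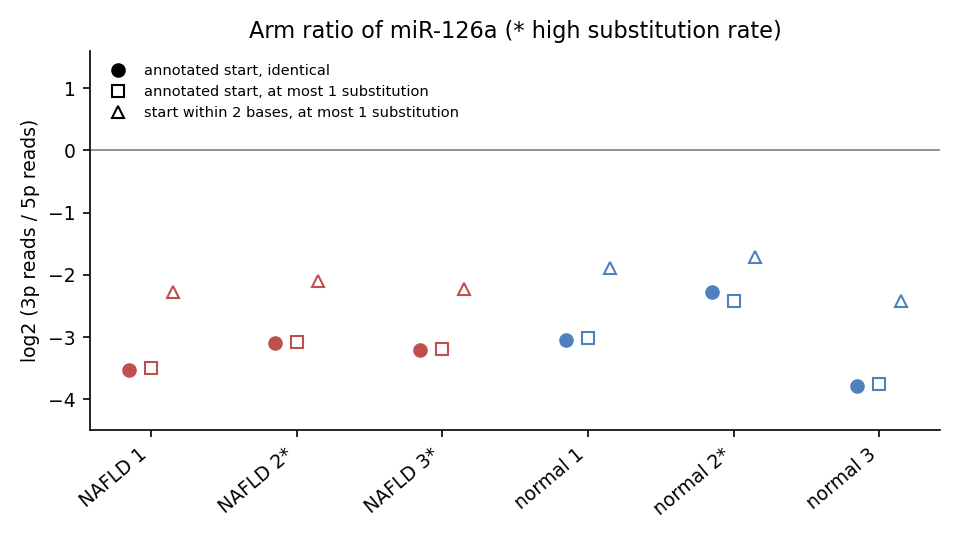
Log2 ratio of miR-126a-3p to miR-126a-5p reads in each library, NAFLD in red and normal in blue, with libraries of high substitution rate starred. Filled circles count reads that begin at the annotated start with identical first 18 bases, squares also those with 1 substitution, and triangles also those that begin within 2 bases of the start. All points lie below 0, the line of equal arms, and the triangles are the highest in each library.

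The size of this ratio depended on where reads of the 3p arm were allowed to begin. Besides the 222 reads of miR-126a-3p at the annotated start, 213 reads matched the hairpin over 18 bases from 1 base further, 34 from 1 base before and 3 from 2 bases further. Shown with bases 2 to 8 of each form in capitals, the shifted forms carry another seed than the annotated one:
rno-miR-126a-3p start -1: cUCGUACCgugaguaauaaugcg
rno-miR-126a-3p start +1: cGUACCGUgaguaauaaugcg
The annotated start thus held 47.0% of the 472 reads of the 3p arm. For miR-126a-5p it held 2101 of 2106 reads, or 99.8%. The other 5 reads were 2, 1 and 1 in NAFLD 1, 2 and 3 and 1 in normal 3, so that this share was 99.6% to 99.7% in NAFLD and at least 99.8% in normal libraries (exact permutation p = 0.1, the lowest possible). The share did not overlap and was lower in NAFLD for 9 of 118 miRNAs with at least 200 such reads, or 7.63%. Among these 118 the median share at the annotated start was 99.5%, and 6 had a lower share than miR-126a-3p.

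Reads from 1 base further were 54 of 106, 22 of 53 and 24 of 67 reads of the 3p arm in NAFLD 1, 2 and 3, and 54 of 115, 15 of 49 and 44 of 82 in normal 1, 2 and 3. As shares these were 50.9%, 41.5% and 35.8% for NAFLD, against 47.0%, 30.6% and 53.7% for normal rats. The means of 42.8% ± 7.64 and 43.7% ± 11.9 (SD, n = 3 each) did not differ beyond the spread (exact permutation p = 0.9). The libraries of high substitution rate had the lower shares, 30.6% to 41.5%, against 47.0% to 53.7% in the others, and these reads were matched without substitution. With all starts within 2 bases and 1 substitution allowed, a matching chosen after the data were seen, the 3p arm had 9.31, 8.25 and 8.97 TPM in NAFLD 1, 2 and 3 and 9.95, 6.74 and 7.24 TPM in normal 1, 2 and 3. By this count the 5p arm was 4.36 times as abundant over all libraries, against 9.46 times by identical bases at the annotated start. The log2 fold change of miR-126a-3p was then 0.15 (standard error 0.29, adjusted p = 0.968, edgeR), and the log2 ratio of the arms differed by -0.19 between the groups (exact permutation p = 0.4).

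**Figure D3:**
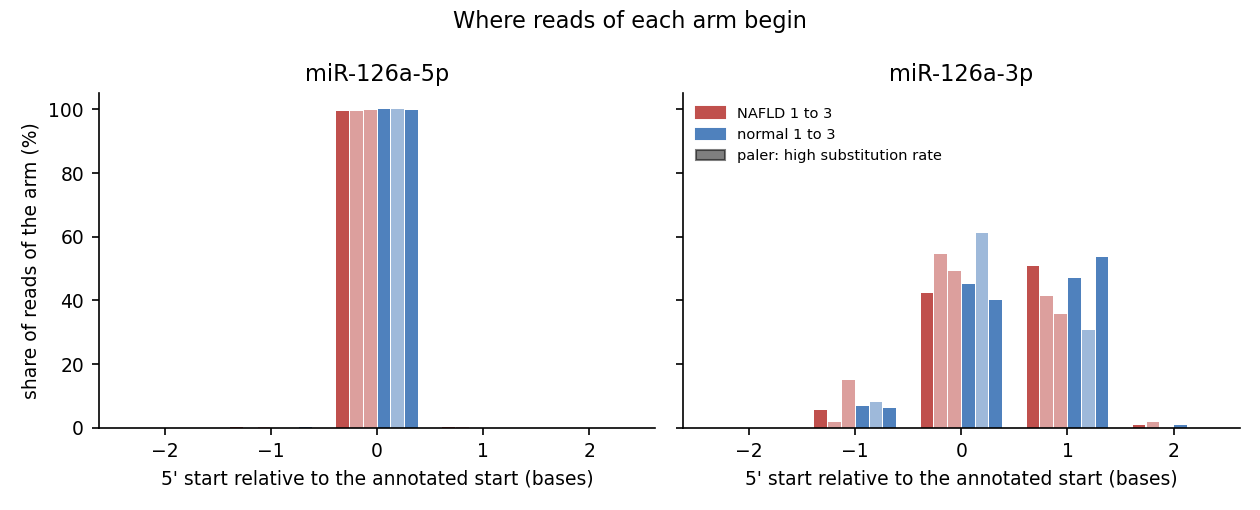
Share of the reads of each arm, in percent, by the position where the read begins relative to the annotated start in bases, with 1 bar per library in the order NAFLD 1 to 3 (red) and normal 1 to 3 (blue), paler where the substitution rate was high. Nearly all reads of miR-126a-5p begin at 0, whereas those of miR-126a-3p divide between 0 and 1 base further in every library.

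The 3′ ends were described against the hairpin, since the rule set only the first 18 bases. The 4 most abundant tags of each arm were each read in every library and are shown in DNA letters, with bases that do not match the hairpin in capitals:
miR-126a-5p, 1032 reads: cattattacttttggtacgcg
miR-126a-5p, 449 reads: cattattacttttggtacgcgA
miR-126a-5p, 369 reads: cattattacttttggtacgcgT
miR-126a-5p, 170 reads: cattattacttttggtacgc
miR-126a-3p, 102 reads: tcgtaccgtgagtaataatgcg
miR-126a-3p, 29 reads: tcgtaccgtgagtaataatgcgA
miR-126a-3p, 26 reads: tcgtaccgtgagtaataatgc
miR-126a-3p, 20 reads: tcgtaccgtgagtaataatg
Of all reads of miR-126a-5p, 49.1% were identical to the mature sequence and 41.3% ended in bases absent from the hairpin at that place. An added A alone accounted for 21.4% and an added U, read as T, for 17.6%. Such 3′ additions are known products of terminal nucleotidyl transferases. The fifth most abundant tag of each arm had 15 reads for miR-126a-5p, 1 base longer in step with the hairpin, and 11 reads for miR-126a-3p, of 19 nt.

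The share of miR-126a-5p reads with a 3′ end absent from the hairpin was 43.9%, 40.1% and 37.9% in NAFLD 1, 2 and 3 and 35.0%, 35.9% and 48.8% in normal 1, 2 and 3. Normal 3 had both the highest such share and the lowest share of the mature form, 42.2%, while the other libraries had 49.7% to 54.5% of the mature form. The added A made up 29.9% of the reads in normal 3, 23.6% in NAFLD 1 and 15.1% to 19.8% in the other libraries. Over the groups the mature form had 50.3% ± 0.53 for NAFLD and 49.6% ± 6.49 for normal (SD, n = 3 each, exact permutation p = 1.0, adjusted p = 1.0). The mean read length was 21.34 ± 0.04 nt and 21.33 ± 0.09 nt (exact permutation p = 0.8).

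Forms shorter than the mature one were 20.0% to 33.3% of the reads of miR-126a-3p over the 6 libraries and 6.38% to 11.1% of those of miR-126a-5p. The share was higher for miR-126a-3p in 6 of 6 libraries, by 16.7 ± 4.23 percentage points (SD, n = 6, two-sided exact permutation test within libraries, p = 0.0312). Of all 222 reads of miR-126a-3p, 25.7% were shorter, 45.9% were the mature form and 25.2% had an end absent from the hairpin. The mature form had 35.6%, 44.8% and 45.5% in NAFLD 1, 2 and 3 and 40.4%, 63.3% and 54.5% in normal 1, 2 and 3. The means of 41.9% ± 5.54 and 52.8% ± 11.6 (SD, n = 3 each) overlapped between the groups (exact permutation p = 0.3, adjusted p = 0.833). Each of these shares rests on 29 to 52 reads, and the 95% Wilson interval in NAFLD 2, for instance, ran from 28.4% to 62.5%. Of the 10 measures of 3′ end form compared over both arms, the lowest exact permutation p was 0.3, with an adjusted p of 0.833 (Benjamini-Hochberg).

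**Figure D4:**
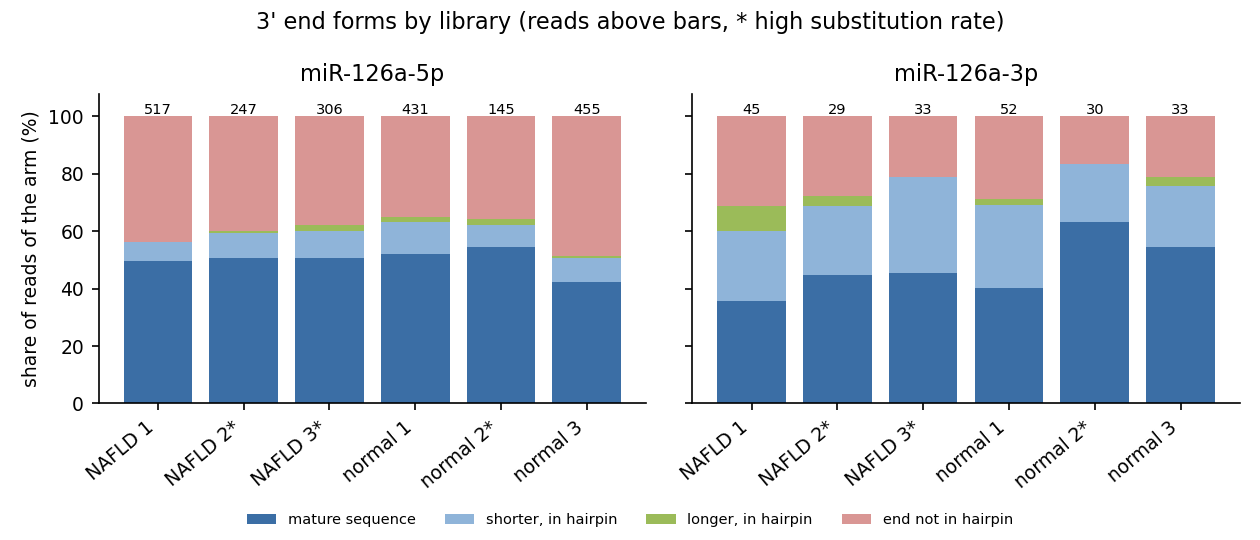
Share of the reads of each miR-126a arm, in percent, by form of the 3′ end in each library, with the number of reads above each bar and libraries of high substitution rate starred. The mature form holds between 42.2% and 54.5% of miR-126a-5p reads, and shorter forms take a larger part of miR-126a-3p than of miR-126a-5p.

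To place miR-126a beside other miRNAs of blood vessels, a list of 17 known for roles in endothelial growth and angiogenesis was counted, chosen with earlier results of these data known. Of these, 14 had enough reads for the test, and 0 passed the adjusted p threshold in either direction (edgeR, adjusted p 0.986 to 0.995 for all 14). The median log2 fold change of the list was 0.10, from -0.27 to 1.15, beside a median of 0.02 over all miRNAs tested. miR-130a-3p, which restrains the antiangiogenic homeobox genes Meox2 and Hoxa5, was at 78.0, 29.8 and 37.8 TPM in NAFLD 1, 2 and 3 and at 52.8, 18.03 and 49.3 TPM in normal 1, 2 and 3. As with miR-126a-5p, the highest value was in NAFLD 1 and the lowest in normal 2. miR-221-3p, which restrains the receptor Kit, was at 51.9 to 86.5 TPM in the NAFLD and 54.0 to 97.2 TPM in the normal libraries. miR-132-3p had the widest spread of the list, at 1061, 272 and 46.0 TPM in NAFLD 1, 2 and 3 and 146, 76.6 and 397 TPM in normal 1, 2 and 3. Both its highest and its lowest value were thus in NAFLD libraries, and its log2 fold change of 1.15 had a standard error of 0.86. In a fit chosen after the data were seen, with 1 substitution allowed and the division by rate as a term, its log2 fold change was 1.49 (standard error 0.36, adjusted p = 0.0151, edgeR). There it passed as the only miRNA of the vascular list. In that fit 4 of 173 miRNAs, or 2.31%, passed, and the median log2 fold change over all miRNAs was 0.25. In 15 of the 17 the mean was lower in the libraries of high substitution rate, as it was for both arms of miR-126a. This was not particular to the vascular list. In the lists of other cell types described below, it held for 3 of 3 hepatocyte and 5 of 5 smooth muscle and stellate members. It also held for 3 of 3 erythroid and 3 of 4 leukocyte members with a sequence. The share of all miRNAs with a lower mean in those libraries was not counted. Of the 17, miR-10b-5p had 0 reads in every library, and miR-218a-5p and miR-296-5p were at most 0.345 TPM in any library.

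Other cell types were read from lists of the same kind. Of the hepatocyte list, miR-122-5p, the dominant miRNA of hepatocytes, was at 445063 to 465119 TPM for NAFLD and 560716 to 595583 TPM for normal, and with a log2 fold change of -0.35 (standard error 0.04, adjusted p = 0.000532, edgeR) it was the miRNA that passed the test. This call was lost with TMM factors (adjusted p = 0.899, edgeR), with the reads of all miRNAs as library size (adjusted p = 0.148, edgeR) and in DESeq2 (adjusted p = 0.981), with log2 fold changes of -0.43, -0.16 and -0.41. The other 2 members, miR-192-5p and miR-194-5p, had an adjusted p of 0.986. Reads of all miRNAs made up 76.9%, 75.7% and 79.2% of the clean reads in NAFLD 1, 2 and 3. In normal 1, 2 and 3 they made up 86.9%, 85.7% and 91.3%, and every TPM is per clean reads. Relative to the reads of all miRNAs in place of all clean reads, the log2 fold change was 0.27 for miR-126a-5p and 0.10 for miR-126a-3p. The median over all miRNAs was 0.20 (edgeR, adjusted p = 0.989 for both arms). The lists for smooth muscle and stellate cells, erythroid cells and leukocytes had 5, 3 and 2 members tested, of which 0 passed in edgeR, with median log2 fold changes of 0.38, 0.37 and 0.29. In the fit with 1 substitution and the division by rate, where 4 of 173 miRNAs, or 2.31%, passed, the erythroid miR-144-3p was among them. Its log2 fold change was 1.31 (standard error 0.37, adjusted p = 0.0468, edgeR), beside a median of 0.25 over all miRNAs. The other tested erythroid members, miR-144-5p and miR-451-5p, did not pass there. With 1 substitution allowed but without that division, miR-144-3p had a log2 fold change of 1.03 (adjusted p = 0.583, edgeR). In that fit miR-144-5p was at 0.38 and miR-451-5p at 0.47 (adjusted p = 0.784 and 0.734, edgeR). The groups did not overlap for miR-199a-3p, a miRNA of stellate cells, at 439, 399.7 and 429.6 TPM in NAFLD 1, 2 and 3 and 294, 210.4 and 384 TPM in normal 1, 2 and 3. Its log2 fold change was 0.51 (standard error 0.38, adjusted p = 0.986, edgeR). Over all miRNAs tested, 5 of 167, or 2.99%, were higher in NAFLD without overlap. The groups overlapped for the other members of that list, miR-143-3p, miR-145-5p, miR-199a-5p and miR-214-3p. For miR-145-5p of smooth muscle the log2 fold change was -1.29 (standard error 0.72, adjusted p = 0.986, edgeR). It rests on normal 1, with 84.6 TPM, against 11.4 and 13.2 TPM in normal 2 and 3. In NAFLD 1, 2 and 3 this miRNA was at 15.9, 6.89 and 21.8 TPM. The summed levels of the smooth muscle and stellate, erythroid and leukocyte lists each overlapped between the groups. In NAFLD against normal, the smooth muscle and stellate sum was 532 to 665 TPM against 342 to 593 TPM. The erythroid sum was 27.0 to 76.3 against 30.8 to 50.4 TPM, and the leukocyte sum 7.48 to 15.3 against 3.96 to 13.4 TPM. The leukocyte sum leaves out most reads of miR-142-5p, of which 10.8% began at the annotated start. With starts within 2 bases, a count added after seeing the data, it was 56.6 to 96.6 TPM in NAFLD and 31.2 to 105.7 TPM in normal libraries, again with overlap. The part of these cell types in the level of miR-126a was not tested. Of the leukocyte list, miR-142-3p was at most 0.34 TPM and miR-155-5p at most 0.68 TPM in any library at their annotated starts.

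**Figure D5:**
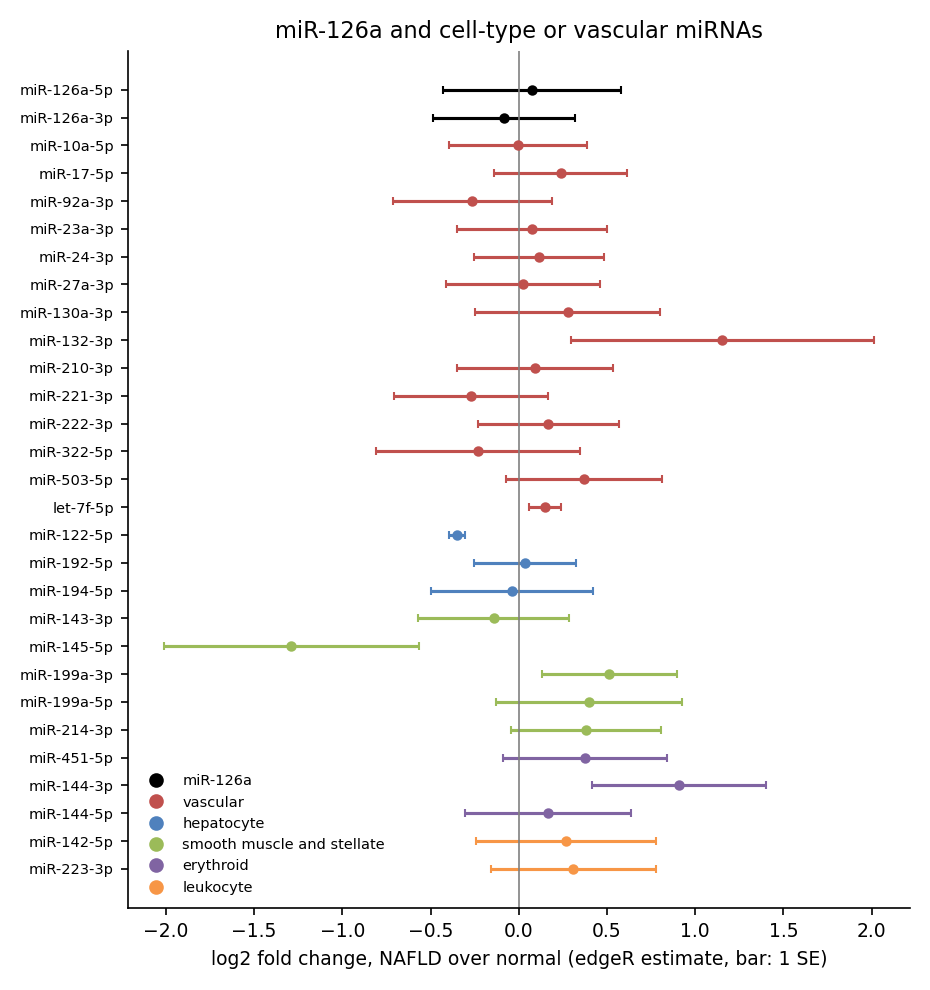
Log2 fold change of NAFLD over normal for both arms of miR-126a (black) and for the tested members of the vascular and cell-type lists, as estimated by edgeR, with bars of 1 standard error. Both arms lie within 1 standard error of 0, as do most of the vascular miRNAs, and miR-122-5p has the narrowest bar.

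By the pattern over the 6 libraries, each arm was compared with the 86 other miRNAs of at least 10 TPM, from which both arms were left out. The root mean squared difference between the log2(TPM + 1) of the arms, each centred on its mean, was 0.47. The median between miR-126a-5p and the 86 miRNAs was 0.35. miR-126a-3p had a mean of 3.14 TPM, below that level, so counting error and the added 1 weigh more on its values. Whether the arms vary apart was not tested. The nearest to miR-126a-5p were miR-152-3p at 0.09, miR-322-3p at 0.11, miR-130a-3p at 0.13, miR-185-5p at 0.16 and miR-26b-5p at 0.17. miR-152-3p, for example, was at 460, 221 and 234 TPM in NAFLD 1, 2 and 3 and at 401, 126 and 391 TPM in normal 1, 2 and 3. All 5 were lowest in normal 2 and lower in each library of high substitution rate than in each other library. The nearest to miR-126a-3p were miR-365-3p at 0.09, miR-139-5p and miR-193a-3p at 0.14, miR-342-3p at 0.16 and miR-101b-3p at 0.17. These likenesses describe 6 libraries that share the same division by substitution rate.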

How the data were processed

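The authors sequenced gel-purified 18 to 30 nt liver small RNA, discarded reads that were under 18 nt, of poor quality, with poly A, or whose adaptors or insert were missing or contaminated, and deposited, for each tag left, its read count, with a log of counts per step. These counts are not normalized or filtered for a genome match, and sum to the clean reads of each log. No genome coordinates come with the tags. TPM is the count divided by total clean reads, times 1000000, as in the study. Tags were matched by their first 18 bases to 717 of 724 RefSeq mature sequences, those of at least 18 nt, which gave 675 distinct sequences. The hairpin around miR-126a is the reverse complement of the RefSeq hairpin on the opposite strand.

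The test was edgeR 4.0.16 (glmQLFit, glmQLFTest, filterByExpr, library size of total clean reads, Benjamini-Hochberg, threshold 0.05) in R 4.3.3, with limma 3.58.1 and DESeq2 1.42.0 as alternatives. Standard errors of edgeR fold changes were derived from the F statistic. On simulated data of the NAFLD against normal comparison with 167 miRNAs and the fitted spread, 20 of 20 changes of log2 2 and 7 of 20 of log2 1 were recovered, with 1 false call. The simulated counts were drawn independently and carried no division by substitution rate. These numbers therefore do not give the power or the rate of false calls in the real libraries. Permutation tests were exact and two-sided. Wilson intervals (95%) and the limit of 3 counts for a count of 0 reflect counting error alone, because copies made by PCR cannot be told from separate molecules. The division of the libraries was made at the widest step in substitution rate at position 4 over 50 abundant tags. Named miRNAs are both arms, list members needed in the text, and the 5 nearest to each arm. The members and lists were chosen with earlier results of these data known. Replicates are separate rats, and differed beyond counting noise. The deviations of same-numbered libraries from their group means had r of 0.15, 0.34 and -0.54 over 167 miRNAs. These values cannot show whether the numbers pair the rats, because NAFLD 3 was of high and normal 3 of low substitution rate. The rats were treated as unpaired in the main test. Of the lists, 2 members without a sequence in the table were not used here. Python 3.11.15 with scipy 1.17.1 was used for the rest.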

Additional observations from a re-analysis of the deposited data

How the results depend on the processing

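Neither arm of miR-126a passed an adjusted p of 0.05 under any of 21 settings, main one included, with adjusted p from 0.331 to 1.00 for miR-126a-5p and 0.899 to 1.00 for miR-126a-3p. The sign of miR-126a-3p was not fixed: its log2 fold change was 0.10 by the library size of miRNA reads, 0.087 with the substitution set of each library as a covariate, 0.14 with at most 1 substitution, 0.15 with starts within 2 bases and at most 1 substitution, and 0.089 with at most 1 substitution and that covariate. With 1 library left out it ranged from -0.30 to 0.20, and that of miR-126a-5p from -0.30 to 0.33, negative without NAFLD replicate 1 or without normal replicate 2. The cause was not tested. For the number of miRNAs called, TMM factors and the library size of miRNA reads gave 0 in edgeR, with 12 and 6 at an unadjusted p under 0.05, while limma gave 1, again miR-122-5p, and DESeq2 gave 1, miR-1b. At most 1 substitution with the covariate gave 4 of 173, or 2.31% (miR-122-5p, miR-132-3p, miR-144-3p and miR-378a-3p). Leaving out 1 library gave 1 to 2, the latter, with miR-184, without NAFLD replicate 1. These miRNAs were named after their values were seen. With the replicate block, the log2 fold changes were 0.17 and -0.07 for miR-126a-5p and miR-126a-3p, 1 miRNA was called, and the difference in log2 arm ratio was -0.24. Left out in turn, the libraries moved that difference from -0.61 to 0.14, and no 3′ end measure moved by as much as its pooled SD. Depth limits miR-126a-3p most, with 29 to 52 reads per library by its first 18 bases and 13 to 21 by the whole mature sequence. The first 18 bases at shifted starts, 1 substitution joined to another change, and the count of calls with 1 substitution were chosen after seeing the data.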

Other observations

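Of the 118 miRNAs with at least 200 reads within 2 bases of the annotated start, 7 had under 50% of them at that start. Besides miR-126a-3p with 47.0%, these were miR-345-3p with 46.5%, miR-3473 with 38.7%, miR-203a-3p with 28.7%, miR-142-5p with 10.8%, miR-145-3p with 6.03% and miR-193b-5p with 0.358%, named after their values were seen. A count by the first 18 bases at the annotated start therefore leaves out most reads of these miRNAs.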
